A study of Mus musculus with 6 samples.

Results

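The colony-stimulating factors are secreted proteins that keep macrophages and granulocytes alive and dividing, and the genes described here are 3 of these ligands and 4 receptor chains: Csf1, Il34, Csf3, Csf1r, Csf2ra, Csf2rb and Csf3r. They were taken by gene symbol from a deposited table of read counts, and all 7 symbols were found among its 52459 rows. RNA had been sequenced from mouse liver tumours (hepatocellular carcinoma) of the genotype MYC-LAP-tTA, in which a tetracycline-controlled transactivator under a liver promoter drives a MYC transgene. In 3 samples, called MYC-Off Day 4, MYC had been inactivated for 4 days, and in the other 3, called MYC-On, MYC was active. All 6 samples carried the transgenes and were whole tumour tissue. The sources used here give neither the age of the mice nor the agent that switched MYC off. They also do not say that each sample is a different mouse, so the p-values below describe sample-to-sample spread, part of which may be technical.

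CSF-1 and IL-34 are unrelated in sequence but bind the same receptor tyrosine kinase, CSF1R, on which macrophages, Kupffer cells (the resident macrophages of the liver) included, depend for survival. GM-CSF signals through a receptor made of its own alpha chain (Csf2ra) and a beta chain (Csf2rb) that is also used by IL-3 and IL-5. G-CSF, the product of Csf3, acts through CSF3R and drives the production and release of neutrophils. The receptors are carried mainly by myeloid cells, while the ligands can be made by stromal, endothelial, epithelial and immune cells, so tumour tissue RNA holds both sides of the pathway.

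The MYC-Off Day 4 libraries held 18390620 to 19265623 reads assigned to genes, against 16292718 to 18040619 reads in the MYC-On libraries. Levels below are CPM, that is reads scaled to a common library size of 1e+06, with a TMM correction for composition, and a fold change is MYC-Off Day 4 over MYC-On. Myc itself stood at 74.8, 10.2 and 18.7 CPM in MYC-Off Day 4 against 779, 1018 and 854 CPM in MYC-On, a drop in every library (log2 fold change -4.67, SE 0.80, adjusted p = 0.00350, edgeR). All 6 hepatocyte genes of the marker lists were higher in MYC-Off Day 4 (median log2 fold change 4.60), with Alb at 59067, 105526 and 203650 CPM in MYC-Off Day 4 against 2646, 828 and 1883 CPM in MYC-On. The MYC-Off Day 4 libraries stood apart from each other in their non-tumour cell markers. Replicate 1 held the most macrophage and lymphocyte marker RNA, and replicate 3 had 0 reads of the Kupffer cell marker Clec4f, which had 221 and 272 CPM in replicates 1 and 2.

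Sequence bears on 2 of the receptor chains before any level is read. Csf2rb (chromosome 15, 78325752 to 78353847, plus strand, mm10) lies beside Csf2rb2 (chromosome 15, 78282507 to 78305721, minus strand), which in mice encodes a beta chain specific for IL-3. Their coding sequences, of 2691 and 2637 bases in GENCODE M21, were 92.9% identical, and 26.0% of the 50-base windows of the Csf2rb coding sequence occurred unchanged in Csf2rb2. Reads from such windows cannot be assigned to one of the genes, and the counts of both are uncertain to an extent that depends on the read length. The longest run they share, of 242 bases at chr15:78348577-78348818 in Csf2rb and at chr15:78284630-78284871 in Csf2rb2, is shown first because no read inside it tells them apart. The next lines give the 60 aligned coding bases that differ most, at chr15:78338893-78338952 in Csf2rb and chr15:78294379-78294438 in Csf2rb2, with the 13 differing bases in capitals.
Shared by Csf2rb and Csf2rb2: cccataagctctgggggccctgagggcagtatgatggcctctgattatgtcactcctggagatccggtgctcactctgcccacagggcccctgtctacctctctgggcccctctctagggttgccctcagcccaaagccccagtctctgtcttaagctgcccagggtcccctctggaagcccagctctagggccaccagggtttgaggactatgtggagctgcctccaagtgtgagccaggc
Csf2rb: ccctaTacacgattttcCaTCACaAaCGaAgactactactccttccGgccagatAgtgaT
Csf2rb2: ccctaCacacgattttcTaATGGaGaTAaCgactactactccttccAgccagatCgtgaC

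Promoter sequences (250 bases before to 50 after a RefSeq start, GRCm38.p6) were at hand for 3 of the 7 genes, Csf1, Csf2ra and Csf3r. They were searched on both strands for CACGTG, the E-box that MYC with MAX can bind, for GAGGAA, a core of sites for the myeloid factor PU.1, and for TGANTCA, the AP-1 motif. These letters occurred in 7.15%, 28.3% and 7.81% of 32851 mouse promoters of the same length. Csf3r held 1 GAGGAA, 86 bases before the RefSeq start used for its window, and Csf2ra held 2, which do not overlap. The RefSeq spans of both genes begin further upstream, at chr4:126023441 for Csf3r and at chr19:61228461 for Csf2ra. These matches therefore lie inside the annotated genes and not ahead of them. The Csf1 window held none of the 3 motifs. The 30 bases around the matches and the Csf1 promoter are shown for the members whose promoter was searched, with GAGGAA in capitals.
Csf3r, chr4:126024561-126024590, plus strand: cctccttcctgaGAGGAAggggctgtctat
Csf2ra, chr19:61228412-61228441, minus strand: cctgcagatGAGGAAGAGGAAgcgggagac
Csf1, chr3:107760470-107760719, minus strand: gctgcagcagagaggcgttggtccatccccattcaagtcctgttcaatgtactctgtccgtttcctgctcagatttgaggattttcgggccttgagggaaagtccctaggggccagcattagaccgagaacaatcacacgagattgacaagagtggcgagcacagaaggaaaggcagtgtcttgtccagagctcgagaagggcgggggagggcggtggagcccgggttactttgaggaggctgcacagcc

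The comparison of MYC-Off Day 4 with MYC-On asks how these ligands and receptors differ in tumours with MYC inactivated and with MYC active. All 6 members with enough reads to be tested were higher in MYC-Off Day 4: the ligands Csf1 and Il34 and the receptor chains Csf1r, Csf2ra, Csf2rb and Csf3r. Their log2 fold changes ran from 1.94 for Csf2ra to 4.53 for Csf1, with a median of 3.07, beside a median of 0.18 over all 14130 genes tested. In this comparison 52.7% of all tested genes passed an adjusted p of 0.05 (quasi-likelihood F-test of edgeR, Benjamini-Hochberg over all tested genes), with 29.9% higher and 22.8% lower in MYC-Off Day 4. The lowest MYC-Off Day 4 library stood above the highest MYC-On library for each of the 6 members, as it did for 33.2% of the tested genes. The seventh member, Csf3, had too few reads to be tested. Without MYC-Off Day 4 replicate 1 the median of the 6 members was 2.30, and without replicate 3 it was 3.31. In bulk tissue, more cells of a type and more RNA per cell cannot be told apart, and that holds for each receptor and ligand below.

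**Figure D1:**
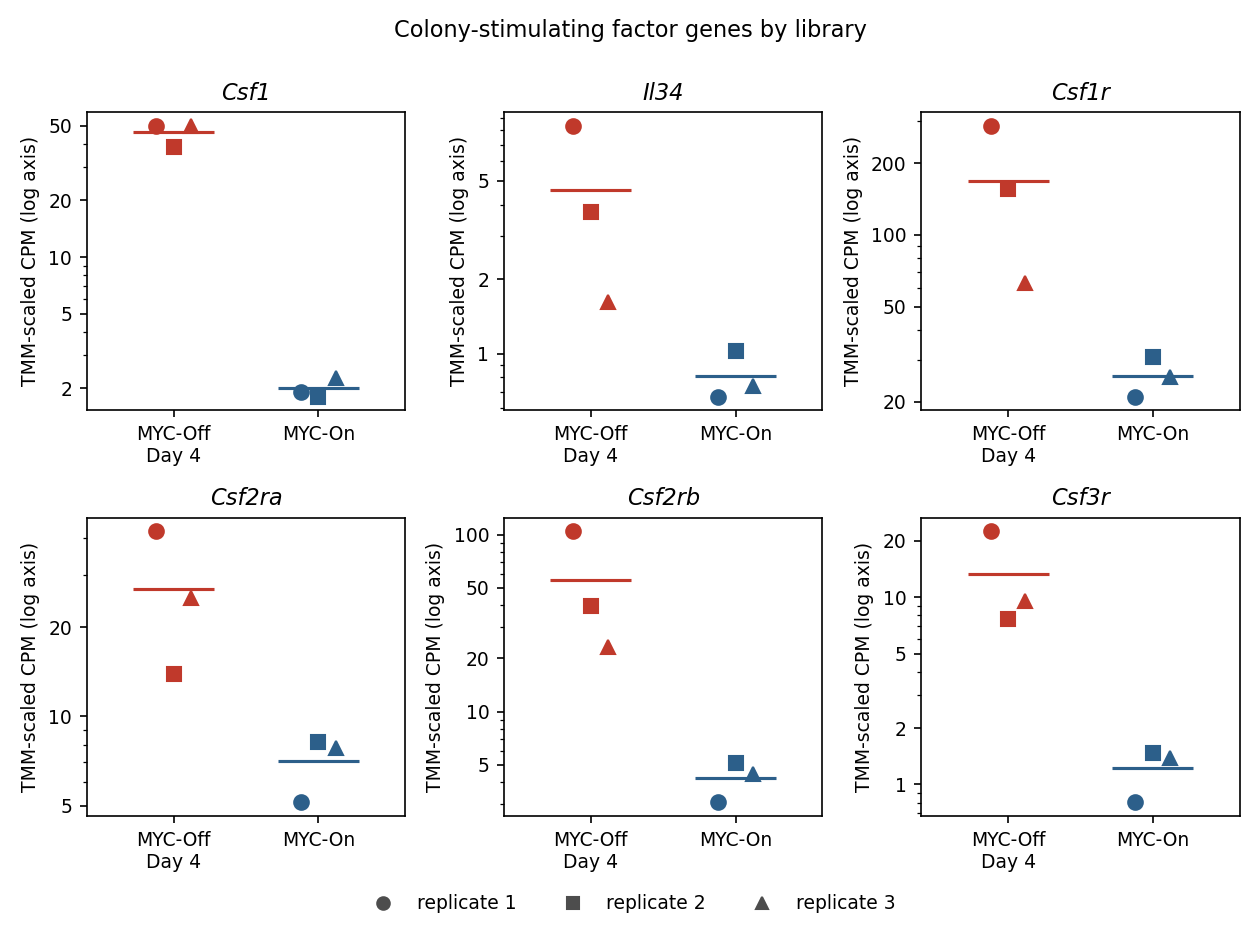
TMM-scaled CPM (log axes) of the 6 tested genes in each library, with MYC-Off Day 4 in red on the left and MYC-On in blue on the right of each panel; points are libraries, shapes their replicate numbers and lines group means (n = 3 each). No panel shows overlap between groups, and the 3 red points lie close together for Csf1 (38.3 to 50.1 CPM) and far apart for Csf1r (62.8 to 287 CPM).

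Csf1, the main CSF1R ligand (chromosome 3, 107741048 to 107760469, minus strand), showed the largest change of the 6 and the least spread within MYC-Off Day 4. It stood at 50.1, 38.3 and 49.7 CPM in MYC-Off Day 4 replicates 1, 2 and 3, against 1.92, 1.80 and 2.27 CPM in MYC-On. The 3 libraries of each group were close to each other, and the groups lay far apart. The means were 46.0 ± 6.66 CPM in MYC-Off Day 4 and 1.99 ± 0.244 CPM in MYC-On (SD, n = 3 each), a ratio of 23.1. On the log2 scale the fold change was 4.53 (SE 0.26, 95% interval 3.91 to 5.14, adjusted p = 0.000805, edgeR), larger than for 95.8% of tested genes. The highest MYC-Off Day 4 library had 1.31 times the level of the lowest, whereas the median of this ratio was 2.87 over 4215 genes called higher with reads in every MYC-Off Day 4 library, and 93.3% of those genes had a larger ratio than Csf1. Leaving out any one library moved the log2 fold change only between 4.31 and 4.57.

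Il34, the other CSF1R ligand (chromosome 8, 110741829 to 110805924, minus strand), was lower than Csf1 and less even in MYC-Off Day 4. It had 152, 49 and 21 reads in MYC-Off Day 4 against 15, 25 and 15 reads in MYC-On, or 8.35, 3.75 and 1.61 CPM against 0.668, 1.02 and 0.740 CPM. Replicate 1 was high, and replicate 3 was only slightly above the highest MYC-On library. The log2 ratio was 2.49 (SE 0.67, 95% interval 0.92 to 4.06, adjusted p = 0.0180, edgeR), and it was 1.57 without MYC-Off Day 4 replicate 1 (adjusted p = 0.0456). This call was lost with library size in place of TMM (1.90, adjusted p = 0.0707) and without MYC-On replicate 1, 2 or 3 (adjusted p = 0.0797, 0.0609 and 0.0775). Short exons of 2 gene models on the other strand, Gm15894 and Gm15895, overlap 5.0% of the exon bases of Il34, and no source used here says whether the counting used strand.

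The balance of the 2 ligands leaned to Csf1 in MYC-Off Day 4 and to neither ligand in all MYC-On libraries. Per kilobase of exon, Csf1 made up 69.0%, 79.1% and 92.0% of the reads of both ligands in MYC-Off Day 4, against 51.5%, 39.5% and 53.2% in MYC-On. Every MYC-Off Day 4 share lay above every MYC-On share, with p = 0.1 in a two-sided exact permutation test, the smallest that 3 against 3 samples allow. The 95% Wilson intervals cover counting error only. In the nearest pair of libraries they overlapped, at 65.2% to 72.5% in MYC-Off Day 4 replicate 1 and 39.0% to 66.9% in MYC-On replicate 3. The MYC-On library had 61 reads of both ligands. Overlap of intervals is not a test of the difference between these 2 libraries. Exon lengths came from GENCODE M21, which may not be the annotation the authors counted on.

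Csf3, the gene of G-CSF (chromosome 11, 98701263 to 98703629, plus strand), was at the limit of detection. It had 3, 0 and 0 reads in MYC-Off Day 4 and 0, 0 and 0 reads in MYC-On. A count of 0 allows up to 3 reads, which is 0.156 to 0.184 CPM before TMM scaling in the 5 libraries without a read. A difference between the groups was not detectable at this depth, and no fold is given.

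Csf1r, the receptor of CSF-1 and IL-34 (chromosome 18, 61100598 to 61132149, plus strand), was the most abundant member. It stood at 287, 155 and 62.8 CPM in MYC-Off Day 4, against 20.98, 30.9 and 25.3 CPM in MYC-On. All 3 MYC-Off Day 4 libraries were above MYC-On, and replicate 3 lay nearest to them. The means were 168 ± 113 CPM in MYC-Off Day 4 and 25.8 ± 4.99 CPM in MYC-On (SD, n = 3 each), and the log2 ratio was 2.71 (SE 0.53, 95% interval 1.46 to 3.96, adjusted p = 0.00565, edgeR), or 1.94 without MYC-Off Day 4 replicate 1. Exons of Hmgxb3 on the other strand overlap 15.1% of the exon bases of Csf1r. Hmgxb3 was at 14.4 to 22.1 CPM in MYC-Off Day 4 and 25.3 to 50.9 CPM in MYC-On, the reverse order of the groups.

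Relative to its receptor, Csf1 was more abundant in MYC-Off Day 4. It had 0.174, 0.247 and 0.791 times the CPM of Csf1r in MYC-Off Day 4 replicates 1, 2 and 3, against 0.0913, 0.0582 and 0.0895 times in MYC-On. The ratio was higher in every MYC-Off Day 4 library, with p = 0.1 in a two-sided exact permutation test, the smallest this design allows. Its mean difference of 0.324 was carried by replicate 3, without which it was 0.131. In that library Csf1 was as high as in replicate 1, while Csf1r had 62.8 CPM. This ratio was added after the values had been seen, and it is not corrected for the lengths of the genes.

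The genes of both GM-CSF receptor chains rose. Csf2rb stood at 104, 39.3 and 23.2 CPM in MYC-Off Day 4 against 3.07, 5.16 and 4.44 CPM in MYC-On. It had its lowest MYC-Off Day 4 value in replicate 3 and still no overlap with MYC-On. Its means were 55.6 ± 43.0 CPM in MYC-Off Day 4 and 4.22 ± 1.06 CPM in MYC-On (SD, n = 3 each), and its log2 ratio was 3.72 (SE 0.60, 95% interval 2.32 to 5.12, adjusted p = 0.00280, edgeR), or 2.74 without MYC-Off Day 4 replicate 1. Csf2ra (chromosome 19, 61223957 to 61228429, minus strand) stood at 42.2, 13.9 and 25.0 CPM in MYC-Off Day 4 against 5.12, 8.19 and 7.84 CPM in MYC-On. It showed the smallest change of the 6, and its lowest MYC-Off Day 4 library was replicate 2 and not replicate 3. Its log2 ratio was 1.94 (SE 0.44, 95% interval 0.90 to 2.98, adjusted p = 0.00996, edgeR), with 1.32 without MYC-Off Day 4 replicate 1, and its call was lost with library size in place of TMM (1.31, adjusted p = 0.0737). The intervals of the 2 chains overlap, and their difference was not tested.

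The paralog Csf2rb2, whose coding sequence is compared with that of Csf2rb above, changed in the same direction. It stood at 62.6, 18.6 and 24.0 CPM in MYC-Off Day 4 against 1.11, 2.09 and 1.38 CPM in MYC-On, or 4.51 on the log2 scale (SE 0.58, adjusted p = 0.00141, edgeR). Of the reads given to either gene, Csf2rb held 62.5%, 67.9% and 49.2% in MYC-Off Day 4, against 73.4%, 71.2% and 76.3% in MYC-On. Every MYC-Off Day 4 share was lower, with p = 0.1 in a two-sided exact permutation test, and the mean difference of -13.8 percentage points became -8.42 without MYC-Off Day 4 replicate 3. The Wilson intervals of the nearest libraries overlapped, at 64.5% to 71.1% in MYC-Off Day 4 replicate 2 and 64.1% to 77.4% in MYC-On replicate 2. This share was also added after the values had been seen.

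Csf3r, the receptor of G-CSF (chromosome 4, 126024550 to 126044440, plus strand), rose, while its ligand gene had almost no reads. It stood at 22.5, 7.65 and 9.52 CPM in MYC-Off Day 4 against 0.802, 1.47 and 1.38 CPM in MYC-On. Replicate 1 was the highest, and replicates 2 and 3 were close to each other. The means were 13.2 ± 8.10 CPM in MYC-Off Day 4 and 1.22 ± 0.364 CPM in MYC-On (SD, n = 3 each), and the log2 ratio was 3.44 (SE 0.56, 95% interval 2.13 to 4.74, adjusted p = 0.00286, edgeR), or 2.66 without MYC-Off Day 4 replicate 1. No exon of Csf3r overlaps another gene in GENCODE M21.

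Per kilobase of exon the order of the members' mean levels differed between the groups. In MYC-Off Day 4 the mean levels were 29.2 CPM per kb for Csf1r, 9.42 for Csf2ra, 8.72 for Csf1, 7.65 for Csf2rb, 3.67 for Csf3r and 2.33 for Il34. The ranges of each pair of neighbours in that order overlapped across libraries. Within each MYC-Off Day 4 library, though, Csf1r lay above Csf2ra, Csf2rb above Csf3r and Csf3r above Il34. In MYC-On the means were 4.46 CPM per kb for Csf1r, 2.46 for Csf2ra, 0.580 for Csf2rb, 0.414 for Il34, 0.378 for Csf1 and 0.338 for Csf3r. There Csf1r lay above Csf2ra and Csf2ra above Csf2rb without overlap, whereas the ranges of the remaining neighbours overlapped. Of these neighbours, Csf2rb lay above Il34 within each MYC-On library. By the group means Csf1 was the third of the 6 in MYC-Off Day 4 and the fifth in MYC-On, but its place changed between libraries. In MYC-Off Day 4 replicate 1 it lay below Csf2ra and Csf2rb (9.48 against 14.7 and 14.3 CPM per kb). In replicates 2 and 3 it lay above both. In MYC-On it lay above Il34 in replicates 1 and 3 and was the lowest of the 6 in replicate 2.

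**Figure D2:**
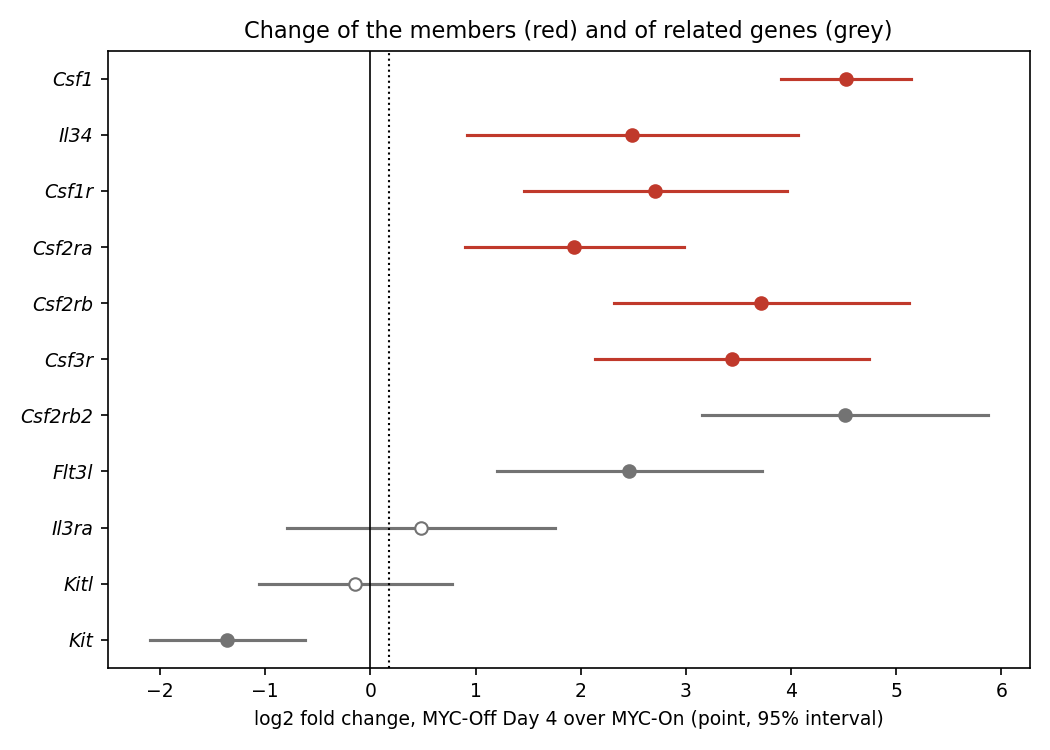
Log2 fold change of MYC-Off Day 4 over MYC-On for the 6 tested members (red) and the 5 tested related genes (grey), with 95% intervals; filled points passed an adjusted p of 0.05 and the dotted line is the median of all tested genes (0.18). Csf1 has the shortest interval of the members (3.91 to 5.14), and Kit is the only one of the 11 genes that passed with a negative value (-1.36).

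Other cytokines and receptors of the same families did not share one direction. Of 10 such genes 5 had enough reads to be tested, of which 2 rose, 1 fell and 2 did not pass (median log2 fold change 0.48). Flt3l, the ligand of the progenitor and dendritic cell receptor FLT3, rose with 7.09, 4.44 and 2.46 CPM in MYC-Off Day 4 against 0.891, 0.655 and 0.986 CPM in MYC-On (2.46, adjusted p = 0.00817, edgeR), and Csf2rb2 rose as given above. The gene model Gm45713 on the same strand overlaps 22.1% of the exon bases of Flt3l, whose count is uncertain to that extent. Kit, the stem cell factor receptor and a close relative of CSF1R, fell to 14.4, 7.73 and 11.8 CPM in MYC-Off Day 4, against 26.5, 36.4 and 24.2 CPM in MYC-On (-1.36, SE 0.31, adjusted p = 0.0101, edgeR).

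Neither Kitl nor Il3ra passed. Kitl, the ligand of KIT, had 26.2 ± 12.3 CPM in MYC-Off Day 4 and 29.0 ± 6.21 CPM in MYC-On (SD, n = 3 each), with a 95% interval of its log2 fold change of -1.06 to 0.78. Il3ra, the alpha chain of the IL-3 receptor, had 19.0, 5.74 and 5.07 CPM in MYC-Off Day 4 against 6.50 to 7.89 CPM in MYC-On, so only replicate 1 was above MYC-On. Among the untested genes, Flt3 had 170, 26 and 6 reads in MYC-Off Day 4 against 7, 6 and 5 reads in MYC-On. Csf2, which encodes GM-CSF, had 6, 0 and 2 reads in MYC-Off Day 4 and 0 reads in each MYC-On library. Il5ra had 10, 1 and 3 reads in MYC-Off Day 4 against 2, 0 and 0 reads in MYC-On, and Il3 and Il5 had 0 reads in all 6 libraries.

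Genes that relay the receptors' signals mostly rose as well. Of 21 tested genes of the signalling list 14 were higher and 0 lower (median log2 fold change 1.58), beside 29.9% of all tested genes higher and a median of 0.18. The count was 13 without MYC-Off Day 4 replicate 1 and 14 without replicate 3. Jak2, the kinase bound to the GM-CSF and G-CSF receptors, rose to 39.3 ± 7.32 CPM in MYC-Off Day 4, against 9.86 ± 1.13 CPM in MYC-On (2.00, SE 0.24, adjusted p = 0.00118, edgeR). Stat3, which carries the G-CSF signal among others, rose by 1.58 (SE 0.24), with 171 ± 33.1 CPM in MYC-Off Day 4 and 57.0 ± 5.92 CPM in MYC-On, and its feedback inhibitor Socs3 rose by 1.90 (SE 0.30).

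The STAT5 genes, which act below the GM-CSF receptor, were among the 7 signalling genes that did not pass. Stat5b had 53.7 ± 4.34 CPM in MYC-Off Day 4 and 69.3 ± 3.95 CPM in MYC-On (SD, n = 3 each; 95% interval of the log2 fold change -0.81 to 0.07), and Stat5a had an interval of -0.14 to 1.29. Cish, a STAT5 target that inhibits cytokine signalling, had an interval of -0.98 to 1.20, and Adam17, a protease that sheds CSF1R, one of -0.75 to 0.54. Cbl, Grb2 and Socs1 were the other 3. Several of the genes that rose serve many receptors and are expressed by hepatocytes as well as by myeloid cells.

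Most transcription factors of the myeloid list rose. Of 10 tested genes 9 were higher and 0 lower (median log2 fold change 2.67), beside 29.9% of all tested genes higher, and 9 were higher without MYC-Off Day 4 replicate 1 and 8 without replicate 3. Maf, which helps to hold macrophages in their differentiated state, rose to 89.2 ± 48.0 CPM in MYC-Off Day 4, against 13.6 ± 2.87 CPM in MYC-On (2.71, SE 0.43, adjusted p = 0.00270, edgeR). Spi1, which encodes PU.1, stood at 129, 33.6 and 30.2 CPM in MYC-Off Day 4 against 5.75, 7.74 and 10.1 CPM in MYC-On, or 3.03 on the log2 scale (SE 0.62). Cebpa, which hepatocytes also express, stood at 245, 561 and 685 CPM in MYC-Off Day 4 against 219, 203 and 242 CPM in MYC-On, so its lowest MYC-Off Day 4 library was replicate 1, where the receptors were highest. Cebpb did not pass, with 23.3 ± 8.37 CPM in MYC-Off Day 4 and 19.4 ± 2.41 CPM in MYC-On (SD, n = 3 each).

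**Figure D3:**
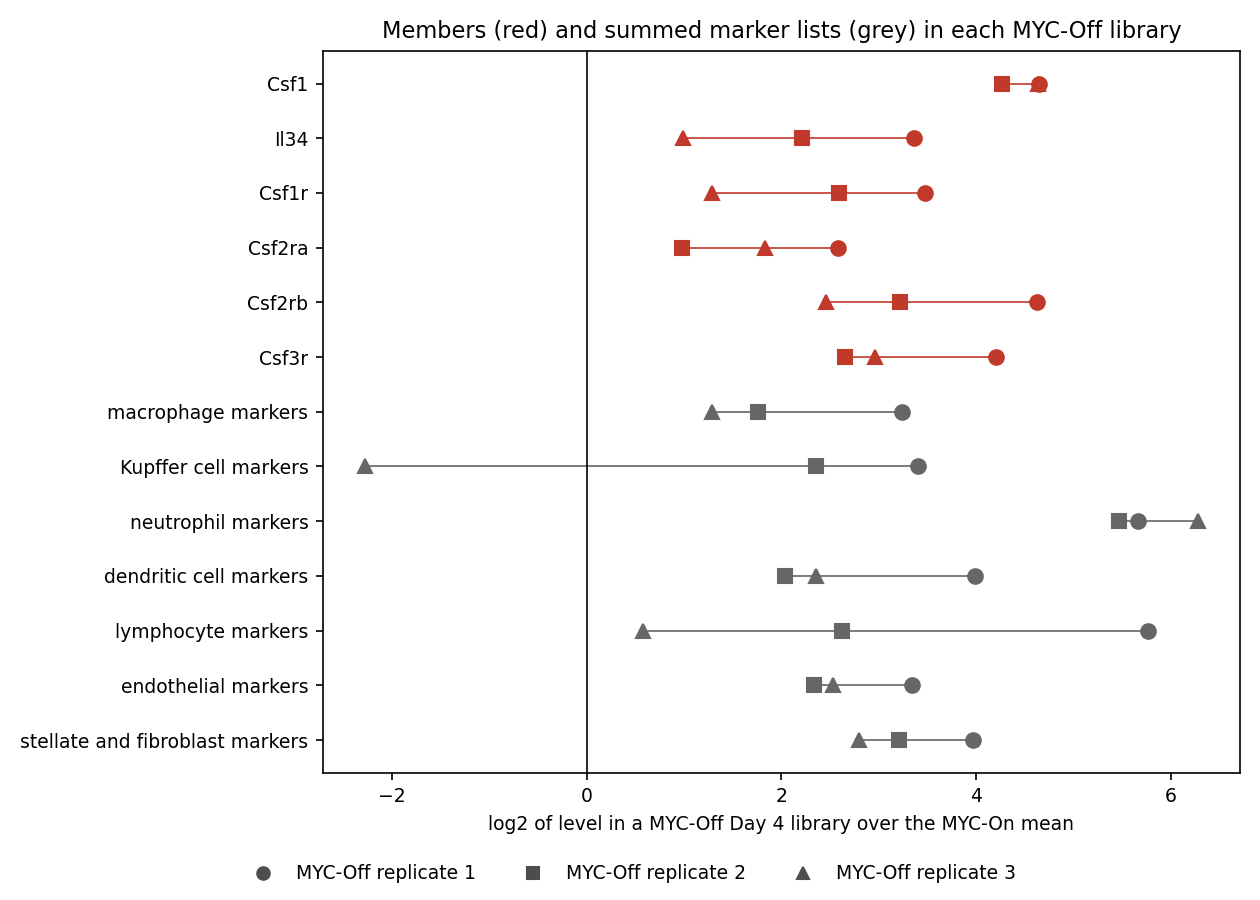
Log2 of the level in each MYC-Off Day 4 library over the MYC-On mean, for the 6 tested members (red) and for the summed CPM of 7 marker lists (grey); shapes are replicate numbers. Csf1 lies at 4.26 to 4.65 in all 3 libraries, while the Kupffer cell markers lie at 3.41 and 2.35 in replicates 1 and 2 and at -2.28 in replicate 3.

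Markers of myeloid and other non-tumour cells moved in the same direction as the members, as did the 6 hepatocyte genes, and their part in the members' changes was not tested. All 10 macrophage markers were higher in MYC-Off Day 4 and none was at 0 reads in any library. Their summed level was 8032, 2889 and 2070 CPM in MYC-Off Day 4 against 615, 761 and 1177 CPM in MYC-On, and among them Adgre1 averaged 66.4 ± 39.6 CPM in MYC-Off Day 4 and 12.1 ± 1.98 CPM in MYC-On. Of the macrophage marker sum, Csf1r amounted to 3.57%, 5.37% and 3.03% in MYC-Off Day 4, against 3.41%, 4.07% and 2.15% in MYC-On. These ranges overlapped, with a mean difference of 0.782 percentage points and p = 0.5 in a two-sided exact permutation test, a test that cannot go below 0.1 in this design. The difference was 0.0922 points without MYC-Off Day 4 replicate 2, 0.253 points without MYC-On replicate 3 and 2.13 points without Lyz2, one of the 10 markers. Without Lyz2 the sum is smaller and every percentage larger, so that value cannot be compared in size with the others.

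Kupffer cell markers did not follow Csf1. Their sum was 3231, 1555 and 62.7 CPM in MYC-Off Day 4 against 245, 256 and 414 CPM in MYC-On, so replicate 3 was below every MYC-On library. There Clec4f was at 0 reads and Timd4 at 12.9 CPM, against 18.1 to 26.1 CPM of Timd4 in MYC-On. In the same library Csf1 had 49.7 CPM, Csf1r 62.8 CPM and Csf2rb 23.2 CPM, all above the highest MYC-On library. Of the 5 Kupffer cell markers 2 passed the test as higher.

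Neutrophil markers were raised in every MYC-Off Day 4 library, and their part in the change of Csf3r was not tested. Of 9 tested markers all 9 were higher (median log2 fold change 5.37), and Ly6g had too few reads. Several, such as Camp (2, 1 and 2 reads in MYC-On) and Ngp (5, 6 and 3 reads), passed the filter only through MYC-Off Day 4. Their direction was thereby fixed in advance, and the count and the median carry little weight. S100a9 and Ltf had 11 or more reads in each MYC-On library. Their sum was 176, 154 and 271 CPM in MYC-Off Day 4 against 3.16, 3.72 and 3.55 CPM in MYC-On, with S100a8 at 31.3 to 40.1 CPM in MYC-Off Day 4 and 0.123 to 0.624 CPM in MYC-On. In MYC-On 2 of the 10 markers were at 0 reads in replicate 2 and 2 in replicate 3. Csf3r amounted to 12.8%, 4.96% and 3.52% of the neutrophil marker sum in MYC-Off Day 4, against 25.4%, 39.6% and 38.9% in MYC-On. The percentage was lower in every MYC-Off Day 4 library, by a mean of -27.5 percentage points, with p = 0.1 in a two-sided exact permutation test, the smallest this design allows. It was -43.04 points with S100a8 and S100a9 left out of the marker sum. That makes the sum smaller and every percentage larger, so the 2 differences cannot be compared in size. The MYC-On percentages rest on 18 to 36 reads of Csf3r.

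**Figure D4:**
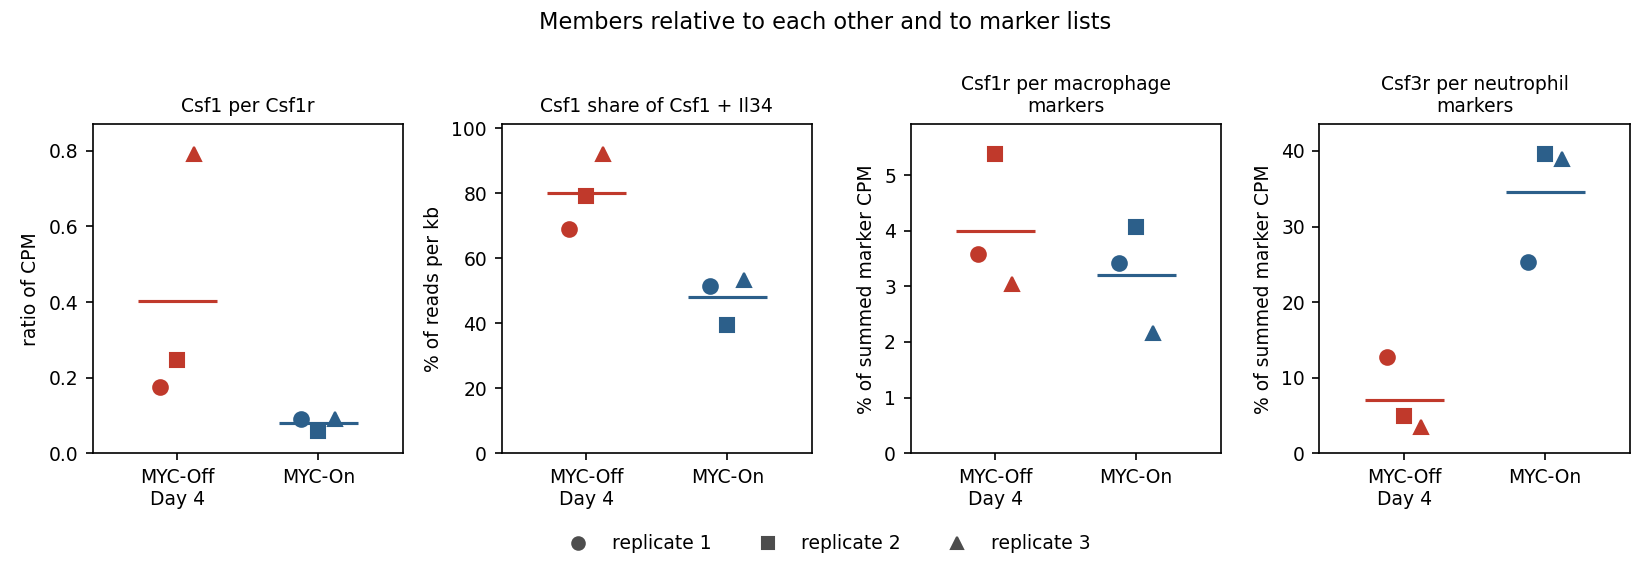
Csf1 over Csf1r (ratio of CPM), Csf1 as a percentage of the reads per kb of both CSF1R ligands, Csf1r as a percentage of the summed macrophage markers and Csf3r as a percentage of the summed neutrophil markers, each per library, with MYC-Off Day 4 in red on the left and MYC-On in blue on the right; lines are group means (n = 3 each). The groups overlap for Csf1r over macrophage markers (3.03% to 5.37% against 2.15% to 4.07%) and in none of the other 3 panels.

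Summed markers of the other cell types that could hold these transcripts were higher in every MYC-Off Day 4 library too, though the lymphocyte sum rose little in replicate 3. The sum of 8 dendritic cell markers was 104, 26.9 and 33.4 CPM in MYC-Off Day 4 against 4.28 to 7.74 CPM in MYC-On, with 7 of 7 tested markers higher, Zbtb46 (2.74) among them. Some of the 7, such as Batf3 (3, 9 and 4 reads in MYC-On), passed the filter only through MYC-Off Day 4. Zbtb46 (20, 25 and 27 reads) and Itgax (50, 98 and 62 reads) did not depend on it. The sum of 10 lymphocyte markers was 205, 23.3 and 5.61 CPM in MYC-Off Day 4 against 3.30 to 4.26 CPM in MYC-On. Of 6 tested markers 5 were higher. Cd3e had 25.6, 4.67 and 0.614 CPM in MYC-Off Day 4 against 0.247 to 0.573 CPM in MYC-On. In MYC-Off Day 4 replicate 3, 3 of the 10 markers were at 0 reads. Ncr1, which did not pass, was there at 0.230 CPM, below every MYC-On library. The sum of 6 endothelial markers was 536, 267 and 307 CPM in MYC-Off Day 4 against 49.0 to 57.1 CPM in MYC-On. Of 5 tested markers 4 were higher, Pecam1 (2.89) and Cdh5 (2.93) among them, and Stab2 did not pass (adjusted p = 0.0558, edgeR). Clec4g, not tested, had 338, 624 and 1 reads in MYC-Off Day 4 against 9, 2 and 6 reads in MYC-On. The sum of 8 stellate cell and fibroblast markers was 2191, 1290 and 975 CPM in MYC-Off Day 4 against 133 to 144 CPM in MYC-On, with 7 of 7 tested markers higher. The stellate cell enzyme Lrat had 42.7, 42.3 and 0.614 CPM in MYC-Off Day 4 against 0.409 to 1.28 CPM in MYC-On, so replicate 3 lacked the rise. Erythroid markers summed to 684 to 2297 CPM in MYC-Off Day 4 and 31.5 to 90.9 CPM in MYC-On, with 5 of 5 tested genes higher. The lymphocyte and Kupffer cell sums varied far more across the MYC-Off Day 4 libraries than Csf1 did. Other sums were more even than those 2, such as the neutrophil sum (154 to 271 CPM) and the endothelial sum. S100a8, 1 of the neutrophil markers, was about as even as Csf1 (31.3 to 40.1 CPM against 38.3 to 50.1 CPM).

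Across the MYC-Off Day 4 libraries all 6 members were highest in replicate 1. Csf1r, Il34 and Csf2rb were lowest in replicate 3, and Csf1, Csf2ra and Csf3r were lowest in replicate 2. The highest library had 4.57, 5.18 and 4.50 times the level of the lowest for Csf1r, Il34 and Csf2rb, and 3.05 and 2.94 times for Csf2ra and Csf3r, beside 1.31 times for Csf1. In MYC-On these ratios were between 1.26 and 1.84 for the 6 members.

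The genes with the most similar pattern over the 6 libraries, among 10447 protein-coding genes, are named as a description. The groups stand apart, so the correlation (Pearson's r of log2 CPM, at least 0.995 for every pair named) mostly follows the step between them. For Csf1 they were H2-K1, a class I antigen-presenting heavy chain with near copies and an uncertain count, the double-stranded RNA sensor Tlr3 and the anti-phagocytic surface protein Cd47. Like Csf1, Tlr3 was even within MYC-Off Day 4, at 14.7, 12.5 and 14.98 CPM against 1.38 to 1.43 CPM in MYC-On. For Csf1r they were Rasgrp2, an activator of small GTPases, the sodium-proton exchanger Slc9a9 and the integrin chain Itga9, and for Il34 they were Slc9a9 again, the clathrin adaptor Picalm and the lysosomal phospholipase Pla2g15. For Csf2rb they included Ccdc88b and Fhl2, for Csf3r they included the integrin chain Itgb5 and the tyrosine kinase Fes, and for Csf2ra they were the endothelial receptor Robo4, the class I-like gene H2-M2 and the fatty acid transporter Slc27a1.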

How the data were processed

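Total RNA of 6 liver tumour samples was sequenced. The submitters' processing notes list mm10 and 5 tools (Trimmomatic, STAR, featureCounts, Picard, DESeq2) without versions, and the authors deposited unnormalized read counts per gene. Annotation and strand setting are not stated in those notes. Of the table's symbols, 91.7% matched GENCODE M21 (mm10), which gave coordinates and exon lengths.

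Groups came from the sample titles. edgeR 4.0.16 in R 4.3.3 was run with filterByExpr (minimum count 10, minimum total 15), TMM, a robust quasi-likelihood fit and Benjamini-Hochberg adjustment over 14130 genes. A gene with very few MYC-On reads could pass this filter only through its MYC-Off Day 4 reads, and could then be called only as higher. CPM values use the reads of tested genes as library size. SE values were derived from the F statistic. Single ratios were tested with exact permutation in scipy 1.17.1. The members and lists were chosen with earlier results of these data known. Named genes are the members, all 10 related cytokine and receptor genes, the 3 called genes with the smallest adjusted p in 2 pathway lists, leading markers, and the 3 genes (protein-coding, mean of at least 5 CPM, no Gm or Rik models) most correlated with each member. Other genes of these lists that are named were chosen after their values were seen. Some genes that the rule names are not reported here.

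The fit was first tested on simulated data. Alternatives were DESeq2 1.42.0, limma-voom (limma 3.58.1), other scalings, filters and fits, and leaving out each replicate. Libraries of a group differed by more than counting noise in every pair (chi-square over its degrees of freedom at least 29.1). Figures were drawn with matplotlib 3.10.9.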

Additional observations from a re-analysis of the deposited data

How the results depend on the processing

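Csf1, Csf1r, Csf2rb and Csf3r kept their direction and their call in all 15 alternatives. With library size in place of TMM the median of all genes moved by -0.74, 2527 genes were higher and 5300 lower (32.3% of calls higher, against 56.7% with TMM), Il34 stood at 1.90 and Csf2ra at 1.31, both no longer called, and 4 members were called. Relative to the median of all genes, Csf1 stood at 4.38 with library size and at 4.35 with TMM. Leaving out each replicate in turn gave 2776 to 4317 genes higher and 2337 to 3786 lower, 5 to 6 members called, and log2 fold changes of 4.31 to 4.57 for Csf1, 1.94 to 3.04 for Csf1r, 1.57 to 2.84 for Il34, 1.32 to 2.20 for Csf2ra, 2.74 to 4.04 for Csf2rb and 2.66 to 3.67 for Csf3r. The lowest count of higher genes, 2776, was without MYC-On replicate 2. With the replicate number as a block Il34 stood at 2.21 (adjusted p = 0.0555) and 5 members were called. Same-numbered libraries did not deviate together (correlations -0.26, -0.17 and 0.04). With 3 samples in each group this cannot exclude a pairing, and the sample titles do not state one. Without Lyz2 the percentage of Csf1r over macrophage markers differed by 2.13 points, without S100a8 and S100a9 that of Csf3r over neutrophil markers by -43.04 points, and without length scaling the Csf1 share by 20.1 points, each in the same direction as before. The first 2 are percentages of smaller marker sums, so only their direction can be compared. Leaving out a replicate, these 3 differences ran from 0.0922 to 1.26, from -32.1 to -25.0 and from 26.0 to 37.5 points, the ratio of Csf1 to Csf1r differed by 0.131 to 0.439 and the Csf2rb share by -17.8 to -8.42 points. The cause of these shifts was not tested. Csf3 has no value in any setting but the unfiltered one, where 3 reads give no usable fold. Depth limits what can be said of Csf3, and the MYC-On values of Il34 and Csf3r rest on 15 to 36 reads.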
